A study of Mus musculus with 6 samples.

Results

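The strands described here are 8 mature microRNAs of mouse that are often reported as raised in cancers: both arms of miR-21a, miR-31 and miR-221, and the 3p arms of miR-210 and miR-222. They were chosen by name from the 1915 mouse names of a raw count table, by a rule that uses no measured value, although earlier results of these data were known. The table compares 3 oviducts with 3 primary tumors that the labels also call ADT tumors. The oviducts carried 1 normal Dicer1 allele beside the D1693N allele (Dicer1+/D1693N), and the tumors carried a knocked-out allele beside it (Dicer1ko/D1693N), so D1693N is common to both groups. The labels give no treatment, and no strain, age or Cre driver, and tissue is labelled oviduct for all 6 samples. Genotype and tumor state change together, as does a tag in the headers of the table (s0 for all oviducts, s1 for all tumors), and these cannot be told apart. Whether each sample is a different mouse is not stated, so the p-values rest on sample-to-sample spread that could be technical in part.

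MicroRNAs are cut from hairpin precursors by Dicer, whose RNase IIIb domain, the site of the D1693N change, cuts the 5p side and whose RNase IIIa domain cuts the 3p side. Usually 1 arm of a hairpin, the guide, is kept in the Argonaute protein and the other is mostly lost. Bases 2 to 8 of the kept strand, the seed, choose its target messenger RNAs. miR-21 is among the most abundant microRNAs of many tumors and represses the tumor suppressor PDCD4. miR-210 is induced by hypoxia through HIF, miR-221 and miR-222 repress the cell cycle inhibitor p27, and miR-31 has been described both as raised and as lost, depending on the tumor type.

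The 5p or 3p strand named first in each hairpin below is its more abundant arm here. All 8 members were found in the RefSeq microRNA table (GRCm38.p6), and their sequences are shown with the seed in capitals because the seed decides which of them can share targets.
mmu-miR-21a-5p: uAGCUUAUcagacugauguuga
mmu-miR-21a-3p: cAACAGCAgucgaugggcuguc
mmu-miR-31-5p: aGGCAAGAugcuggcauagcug
mmu-miR-31-3p: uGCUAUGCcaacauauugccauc
mmu-miR-210-3p: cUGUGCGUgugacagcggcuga
mmu-miR-221-3p: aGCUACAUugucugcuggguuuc
mmu-miR-221-5p: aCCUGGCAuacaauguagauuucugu
mmu-miR-222-3p: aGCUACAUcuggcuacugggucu
Only miR-221-3p and miR-222-3p have a seed in common among the 8. These 2 strands share their first 8 bases and are identical at 11 of 23 positions when aligned from the 5′ end without gaps. The seed is also that of miR-1928, which had 1 count over the 6 libraries, and the seed of miR-21a-5p is also that of miR-21c, which had 0 counts over the 6 libraries. Reads of these relatives therefore made up at most 1 count beside the members. No other mouse name had a row of counts identical to that of a member.

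The hairpins lie at 4 places in the genome, all on the minus strand. Mir21a (chromosome 11, 86584067 to 86584158) lies in the untranslated part of an exon of Vmp1, a protein-coding gene of autophagy. Mir31 (chromosome 4, 88910557 to 88910662) lies in an exon of the long noncoding RNA AL805899.1. Mir210 (chromosome 7, 141221384 to 141221493) overlapped no other annotated gene. Mir221 (X chromosome, 19146294 to 19146388) and Mir222 (X chromosome, 19146893 to 19146971) also overlapped no other gene and are 504 bases apart. The pair is known to be made from 1 primary transcript, so both hairpins are shown, with the arms that the RefSeq table lists in capitals.
Mir221: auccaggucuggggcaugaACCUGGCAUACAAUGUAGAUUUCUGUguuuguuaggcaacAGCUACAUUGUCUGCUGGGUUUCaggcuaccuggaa
Mir222: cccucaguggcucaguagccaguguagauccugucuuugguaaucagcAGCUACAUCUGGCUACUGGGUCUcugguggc

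Libraries held 297039 to 580390 mouse microRNA counts in the oviducts and 154002 to 272167 in the tumors, so a floor of 3 counts stood at 5.17 to 10.1 CPM in the oviducts and 11.0 to 19.5 CPM in the tumors, CPM being the count divided by the library's total and expressed per 1000000. The smooth muscle strand miR-143-3p took 44.1% to 47.2% of each oviduct library and 60.9%, 27.7% and 13.9% in tumors 1, 2 and 3. CPM values below are therefore scaled with trimmed mean of M-values (TMM) factors, which take account of such dominant strands. Of the 5 tested smooth muscle strands 2 were called lower and 3, among them miR-143-3p, were not called. One of the lower strands, miR-145a-5p, fell from 2867 ± 344 to 104 ± 58.7 CPM. At 50.1 CPM it was lowest in tumor 1, where miR-143-3p was highest. The other, its partner arm, fell from 815 ± 326 to 218 ± 127 CPM, and tumor 1 was the highest of the tumors (341 CPM). The amount of smooth muscle in each tumor was not tested. The microRNAs of multiciliated cells, which line the oviduct, summed over the 6 listed strands to 14806 to 21529 CPM in the oviducts, against 420 to 1204 CPM in the tumors. Most of the oviduct sum was the 5p strand miR-34c-5p, at 15537 ± 3863 CPM in the oviducts and 275 ± 379 CPM in the tumors. Of the 5 tested strands 3 were called lower, beside 25.6% of all tested microRNAs, and 2, miR-34c-3p and miR-449a-5p, were not called. The summed level of 4 fibroblast strands was 4405 to 5959 CPM in the oviducts, against 28450 to 44022 CPM in the tumors. Most of both sums was 1 strand, miR-199a-3p, at 4523 ± 583 CPM in the oviducts and 32815 ± 8193 CPM in the tumors. Of the 4 strands 2 were called higher (both 3p) and 2 lower (both 5p), beside 26.9% and 25.6% of all tested microRNAs. In such bulk samples fewer cells of a type and less RNA per cell cannot be told apart. The log2 5p:3p ratios of miR-34b, miR-34c, miR-199a and miR-214 also changed, by -3.49, -5.82, -7.00 and -4.63, tumor over oviduct. The part of cell content and of arm balance in these sums was not tested.

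Of the 8 strands, 6 had enough counts to be tested, 1 rose in the tumors, 1 fell and 4 were not called (edgeR quasi-likelihood test, adjusted p under 0.05). The strand that rose was miR-21a-3p, the lesser arm of its hairpin, and the strand that fell was miR-222-3p. Among all 227 tested microRNAs, 26.9% were called higher and 25.6% lower, 52.4% in all. Log2 fold changes are given as tumor over oviduct. Their median over the 6 tested strands was 0.58, beside 0.20 over all tested microRNAs. Of the 6 strands 4 are 3p strands, and the medians of all tested 3p and 5p names were 0.89 and -1.04. The groups did not overlap in CPM for 1 of the 6, against 60.4% of all tested microRNAs. The 2 strands not tested were miR-31-3p and miR-221-5p, whose counts lay between 1 and 14 in every library.

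**Figure D1:**
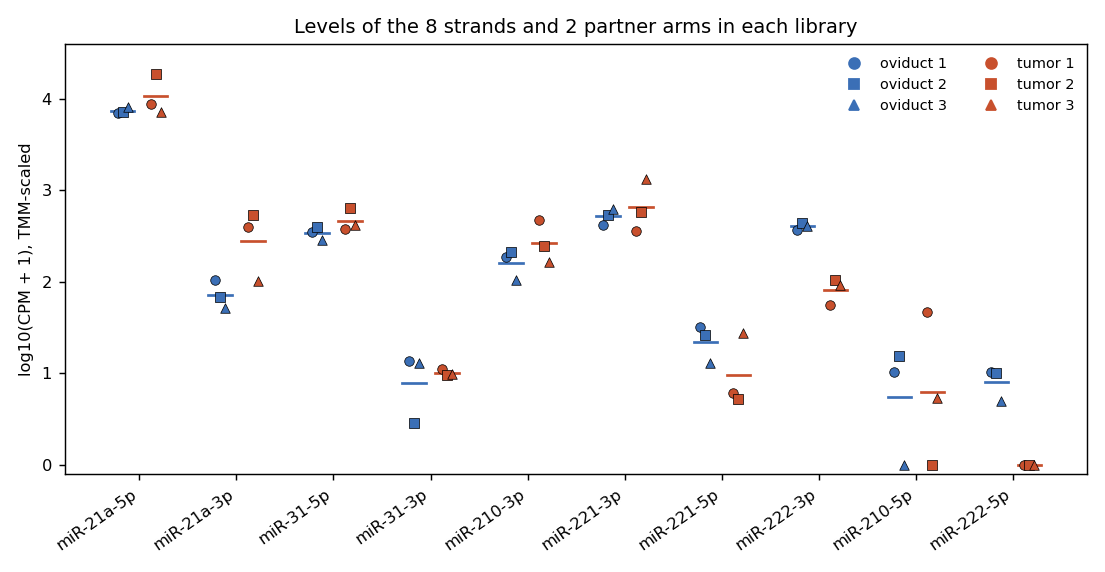
Level of each of the 8 strands and of the partner arms miR-210-5p and miR-222-5p (x axis) as log10(CPM + 1), TMM-scaled (y axis), with 1 marker per library and a line at the mean of the 3 plotted values of each group. miR-222-3p is the only tested strand whose 3 tumor markers, 55.2 to 103 CPM, stand apart from its 3 oviduct markers, 370 to 442 CPM.

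The strands ranked by level as follows. The mature forms are 22 to 26 bases long, so counts of different strands were set side by side without a length term, while any difference in how well each sequence is ligated was not tested. In the oviducts miR-21a-5p led by more than the spread, at 7407 ± 575 CPM (SD, n = 3), the 15th highest of all mouse names. It was followed by miR-221-3p (528 ± 102 CPM), miR-222-3p (407 ± 36.2 CPM) and miR-31-5p (341 ± 54.9 CPM), each of which overlapped the next. Then came miR-210-3p (167 ± 56.9 CPM), which did not overlap miR-31-5p, and miR-21a-3p (73.6 ± 26.2 CPM), whose highest oviduct just reached the lowest of miR-210-3p. The arms miR-221-5p (22.8 ± 9.90 CPM) and miR-31-3p (8.68 ± 5.95 CPM) were lowest and overlapped each other.

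In the tumors miR-21a-5p again stood above the others, at 11570 ± 6132 CPM (SD, n = 3), the 10th highest name. Next were miR-221-3p (750 ± 504 CPM), miR-31-5p (478 ± 143 CPM), miR-21a-3p (mean 342 CPM, 101 to 534) and miR-210-3p (292 ± 160 CPM), and each of these overlapped its neighbour in the order. miR-222-3p, the third of the order in the oviducts, came sixth in the tumors at 83.2 ± 24.9 CPM, below miR-210-3p without overlap but overlapping miR-21a-3p. miR-221-5p (11.9 ± 12.5 CPM) and miR-31-3p (9.11 ± 0.801 CPM) remained lowest. They rest on 1, 1 and 6 counts and on 2 counts in each tumor. miR-31-3p was thus under the floor of 3 counts, and its small SD reflects only library size and scaling.

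mmu-miR-21a-5p, the guide strand of miR-21, was counted 2269, 3908 and 2050 times in the oviducts and 1773, 4347 and 1652 times in the tumors. Scaled, this was 7046, 7104 and 8070 CPM in the oviducts and 8891, 18586 and 7233 CPM in tumors 1, 2 and 3. Tumor 2 was far above every other library, and tumor 3 lay within the range of the oviducts. The log2 fold change was 0.64 (SE 0.37, 95% interval -0.17 to 1.46, edgeR adjusted p = 0.163), a 1.56-fold higher mean that was not called. Without tumor 2 it was 0.16, and with TMM factors from 3p names alone it was -0.19. The log2 difference from the mean of the oviducts was 0.27, 1.33 and -0.03 in tumors 1, 2 and 3.

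Tumor 2 also stood high in leukocyte microRNAs. The 7 listed strands summed to 7555 CPM there, against 1525 and 2036 CPM in tumors 1 and 3 and 1539 to 2525 CPM in the oviducts, and 0 of the 7 were called in either direction by edgeR (2 had an unadjusted p under 0.05, and DESeq2 called 1). miR-155-5p, a strand of activated leukocytes, was at 197 CPM in tumor 2 and at 29.1 to 52.5 CPM in the other libraries. miR-223-3p, a strand of myeloid cells, was at 428 CPM in tumor 2 and at no more than 65.2 CPM elsewhere. The largest part of the sum in tumor 2 was miR-142a-5p, at 3720 CPM. miR-342-3p was higher in tumor 3 (302 CPM) than in tumor 2 (269 CPM), and the other listed strands were highest in tumor 2. The part of leukocytes in the level of miR-21a-5p was not tested.

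Scaled by the library totals alone, the share of miR-21a-5p in all mouse counts was 0.656% ± 0.0456 in oviducts against 1.39% ± 0.947 in tumors (SD, n = 3 each, exact two-sided permutation p = 0.3). The shares of the single tumors were 0.651% (exact 95% interval 0.622 to 0.682), 2.46% (2.39 to 2.53) and 1.07% (1.02 to 1.13). These intervals cover counting error only. The lowest tumor share, that of tumor 1, was within the oviduct range of 0.604% to 0.690%, so the groups overlapped. In TMM-scaled CPM it was tumor 3, not tumor 1, that lay within the oviduct range. Such shares depend on miR-143-3p, which took 60.9%, 27.7% and 13.9% of the counts in tumors 1, 2 and 3.

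The lesser arm mmu-miR-21a-3p was called higher. It was counted 33, 37 and 13 times in the oviducts and 78, 125 and 23 times in the tumors. This was 102, 67.3 and 51.2 CPM in the oviducts and 391, 534 and 101 CPM in tumors 1, 2 and 3. Tumors 1 and 2 were above every oviduct, but tumor 3 lay at the level of oviduct 1, so the groups overlapped. The log2 fold change was 2.21 (SE 0.62, edgeR adjusted p = 0.0129), a 4.61-fold rise. The call was lost without oviduct 2 (log2 2.05, adjusted p = 0.0724), without oviduct 3 (log2 1.62, adjusted p = 0.0903) and with TMM factors from 3p names alone (log2 1.37, adjusted p = 0.122). Over all 16 alternative settings the adjusted p lay between 0.00135 and 0.122. Of all tested 3p names, 41.8% were called higher and 10% lower, with a median log2 fold change of 0.89, so a rise is common among strands of this arm.

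Set against each other within a library, which needs no scaling, the 2 arms of miR-21a shifted toward 3p by an amount that missed the threshold. The 3p arm took 1.43%, 0.938% and 0.630% of the counts of the hairpin in the oviducts and 4.21%, 2.79% and 1.37% in tumors 1, 2 and 3. Tumor 3 was just below oviduct 1, and the other tumors were above all oviducts. The log2 5p:3p ratio changed by -1.43 (SE 0.65, 95% interval -2.87 to 0.02, limma adjusted p = 0.0917). It was called at a pseudocount of 5 (log2 -1.30, adjusted p = 0.0332) and by an edgeR interaction of arm and group (log2 -1.45, adjusted p = 0.00753). Over all 142 hairpins with enough counts, 47.2% had a called fall of this ratio and 4.23% a called rise, and the median change was -1.53. The 5p arm nevertheless kept 97.2% ± 1.42 of the counts of miR-21a in the tumors, beside 99.0% ± 0.405 in the oviducts.

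mmu-miR-31-5p, the guide strand of miR-31, was counted 112, 216 and 72 times in the oviducts and 75, 150 and 95 times in the tumors. Scaled, this was 348, 393 and 283 CPM in the oviducts and 376, 641 and 416 CPM in the tumors. Tumor 2 was again the highest library, while tumor 1 lay among the oviducts. The log2 fold change of 0.48 (SE 0.35, 95% interval -0.28 to 1.25, edgeR adjusted p = 0.254) was not called. It was 0.03 without oviduct 3, 0.17 without oviduct 1, 0.26 without tumor 2 and -0.40 with TMM on 3p names. Among the 95 tested 5p names, 48.4% were called lower and 2.11% higher, with a median log2 fold change of -1.04. miR-21a-5p and miR-31-5p, both uncalled, lay above that median.

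The lesser arm mmu-miR-31-3p was hardly counted in either group, with 4, 1 and 3 counts in the oviducts and 2 counts in each tumor. Pooled over the libraries of a group, the 2 arms of miR-31 had 400 and 8 counts (5p and 3p) in the oviducts, against 320 and 6 in the tumors. The odds of 5p over 3p were thus 1.07-fold in the tumors relative to the oviducts, with an exact 95% interval of 0.321 to 3.77 that covers counting error only. The log2 5p:3p ratio changed by -0.04 (SE 0.79, 95% interval -1.80 to 1.72, limma adjusted p = 0.965). Its sign turned when oviduct 2, the library with a single 3p count, was left out (0.85). A change of arm balance in miR-31 within this interval was not detectable at this depth.

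**Figure D2:**
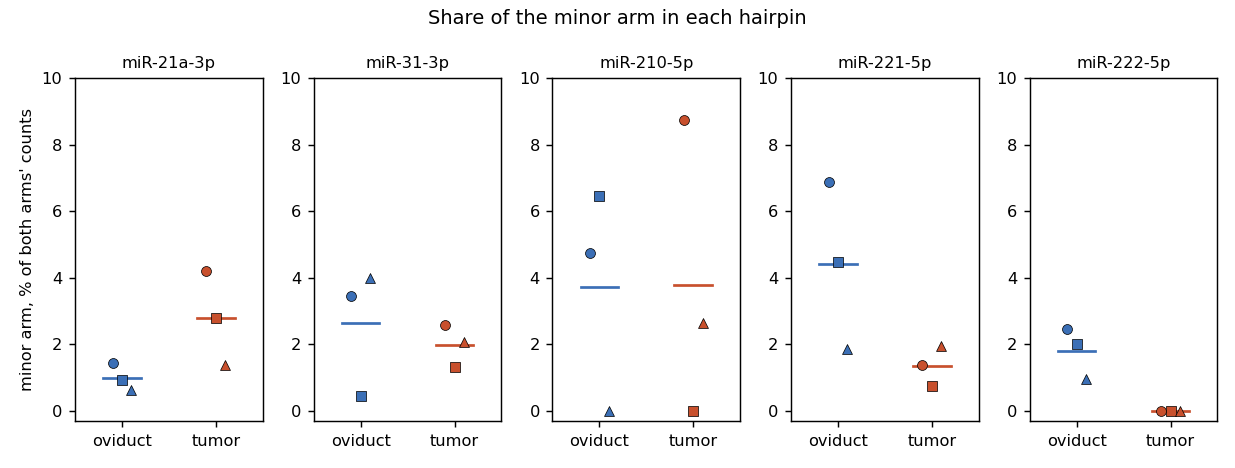
Share of the lesser arm among the counts of both arms, in percent (y axis), for each of the 5 hairpins in oviducts and tumors (x axis), with a circle, square and triangle for replicates 1, 2 and 3 and a line at the mean. The share of miR-21a-3p reaches 4.21% in tumor 1 against at most 1.43% in the oviducts, and that of miR-222-5p is 0 in all 3 tumors, where it rests on 56 counts of the hairpin.

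mmu-miR-210-3p, the guide strand of the hypoxia microRNA, was counted 60, 116 and 26 times in the oviducts and 94, 57 and 37 times in the tumors. This was 186, 211 and 102 CPM in the oviducts and 471, 244 and 162 CPM in tumors 1, 2 and 3. Tumors 1 and 2 were above all oviducts and tumor 3 lay within their range. The log2 fold change of 0.80 (SE 0.50, 95% interval -0.32 to 1.92, edgeR adjusted p = 0.201) was not called. Single libraries weighed heavily on it, since it was -0.01 without tumor 1 and 0.18 without oviduct 3, and 0.52 without oviduct 1.

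The other arm of miR-210, miR-210-5p, had 3, 8 and 0 counts in the oviducts, against 9, 0 and 1 in the tumors. Tumor 1 alone thus held 9 of the 10 tumor counts. The pooled 5p share of the hairpin was 5.16% (exact 95% interval 2.61 to 9.05) in the oviducts and 5.05% (2.45 to 9.09) in the tumors. The log2 5p:3p ratio changed by -0.40 (SE 0.92, limma adjusted p = 0.772), and by 0.56 without tumor 2.

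The clearest difference among the 8 strands was between the neighbours mmu-miR-221-3p and mmu-miR-222-3p. The strand mmu-miR-222-3p was counted 119, 243 and 104 times in the oviducts and 11, 24 and 21 times in the tumors. This was 370, 442 and 409 CPM in the oviducts and 55.2, 103 and 91.9 CPM in the tumors. All 3 tumors were far below all 3 oviducts. The log2 fold change was -2.28 (SE 0.41, 95% interval -3.20 to -1.36, edgeR adjusted p = 0.00128), a 4.85-fold fall. It was called in all 16 alternative settings, where it lay between -3.17 and -1.81 with an adjusted p of at most 0.021.

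mmu-miR-221-3p, which has the same seed and lies beside it, was not called. It was counted 135, 298 and 158 times in the oviducts and 71, 135 and 301 times in the tumors. This was 419, 542 and 622 CPM in the oviducts and 356, 577 and 1318 CPM in tumors 1, 2 and 3. The tumors bracketed the oviducts, with tumor 1 below and tumor 3 above all of them. The log2 fold change was 0.51 (SE 0.46, 95% interval -0.53 to 1.55, edgeR adjusted p = 0.368), and -0.30 without tumor 3.

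The ratio of the pair within a library separated the groups. There were 1.13, 1.23 and 1.52 counts of miR-221-3p per count of miR-222-3p in the oviducts, against 6.45, 5.63 and 14.3 in tumors 1, 2 and 3. Every tumor was above every oviduct. The log2 ratio, with a pseudocount of 0.5, went from 0.36 ± 0.22 to 2.97 ± 0.73 (SD, n = 3 each), a change of 2.61 or 6.12-fold (exact permutation test, two-sided, p = 0.1, below which 3 against 3 cannot go). Leaving out any single library gave values between 2.19 and 2.86. The share of miR-222-3p in the sum of both strands went from 43.8% ± 3.70 to 11.7% ± 4.54.

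The same ratio was set beside those of other neighbouring hairpins. RefSeq positions gave 26 pairs of tested strands of the same arm from hairpins within 10 kb on 1 strand, 20 of them 3p pairs. Strands whose name did not occur exactly once in the RefSeq table, or had no hairpin there, were left out. The set is therefore incomplete. It lacks, for example, the pair of miR-34b-5p and miR-34c-5p, although both were tested and the pair of their 3p strands is in it. The difference between the fold changes of miR-221-3p and miR-222-3p (2.79 on the log2 scale) was the 2nd largest of the 26, after miR-503-3p and miR-322-3p (3.46). This rank holds for these 26 only, since a pair that was left out could differ by more. The median absolute difference was 1.02, and 1.20 over the 3p pairs. A limma fit over the log2 ratios of the 26 pairs, chosen after the data were seen, called the miR-221 and miR-222 pair (log2 2.61, SE 0.45, 95% interval 1.60 to 3.62, adjusted p = 0.0029). It called 30.8% of the pairs. Pairs that have a strand in common are not independent of each other. The same is so for the called pairs of let-7a-1-3p with let-7d-3p and of let-7c-2-3p with let-7b-3p. let-7a-1-3p and let-7c-2-3p had identical values in every library.

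**Figure D3:**
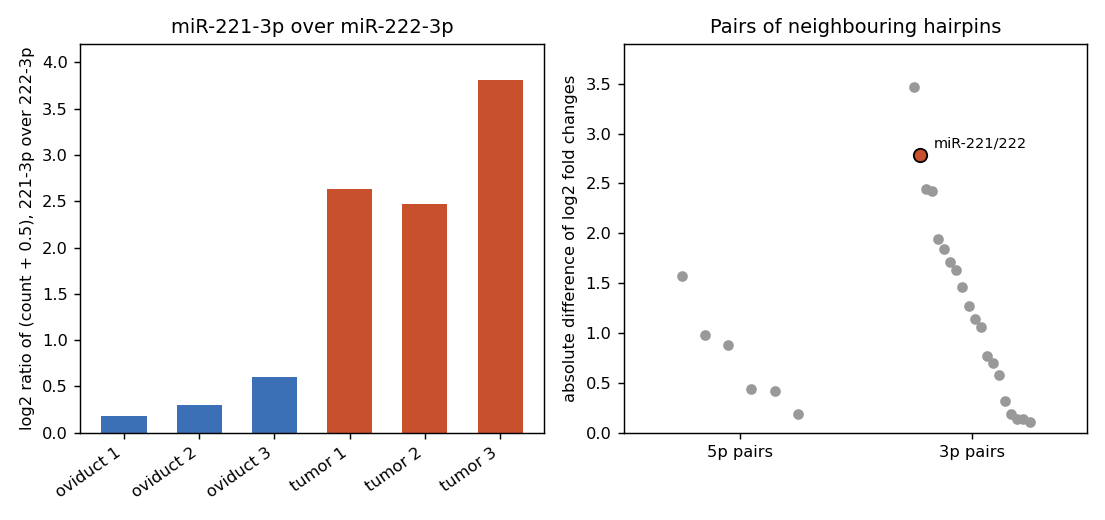
Left, log2 ratio of (count + 0.5) of miR-221-3p over miR-222-3p (y axis) in each library (x axis), with bars from 0. Right, absolute difference between the log2 fold changes of the 2 strands (y axis) for 26 pairs of neighbouring hairpins by arm (x axis), 1 point per pair, with miR-221 and miR-222 marked at 2.79. The 3 tumor bars, 2.47 to 3.81, are all above the oviduct bars, 0.18 to 0.60.

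Together, the pair changed less. The summed level of miR-221-3p and miR-222-3p, the strands that carry the common seed, was 935 ± 129 CPM in the oviducts and 834 ± 517 CPM in the tumors (n = 3 each, exact permutation p = 0.9). The tumors, at 411, 680 and 1410 CPM, lay on both sides of the oviducts, at 789, 984 and 1031 CPM. The spread of the tumors was too wide for a moderate change of the sum to be seen.

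The 5p arms of the pair were rare in both groups. mmu-miR-221-5p had 10, 14 and 3 counts in the oviducts, against 1, 1 and 6 in the tumors. Its pooled share of the hairpin was 4.37% (exact 95% interval 2.90 to 6.29) in the oviducts and 1.55% (0.673 to 3.04) in the tumors, and the odds of 5p over 3p were 0.346-fold (exact 95% interval 0.135 to 0.791, counting error only). With the spread between libraries taken into account, the log2 5p:3p ratio changed by -1.35 (SE 0.66, 95% interval -2.82 to 0.12, limma adjusted p = 0.117), which was not called, and tumor 3 lay within the range of the oviducts. miR-222-5p had 3, 5 and 1 counts in the oviducts and 0 in each tumor. Beside 56 counts of miR-222-3p in the tumors, 0 counts allow a share of up to 5.36% by the floor of 3 counts and up to 6.38% by the exact 95% interval. Both limits are above the 1.89% (exact 95% interval 0.870 to 3.57) of the oviducts. The value of this ratio follows the pseudocount, at -1.68 with 0.1, 0.37 with 0.5 and 2.06 with 5, and is no measure of the arms. Of the 5 hairpins, 0 had a called change of arm ratio by limma, where 0 had an unadjusted p under 0.05 and the smallest was 0.0523, and 1, miR-21a, by the edgeR interaction.

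**Figure D4:**
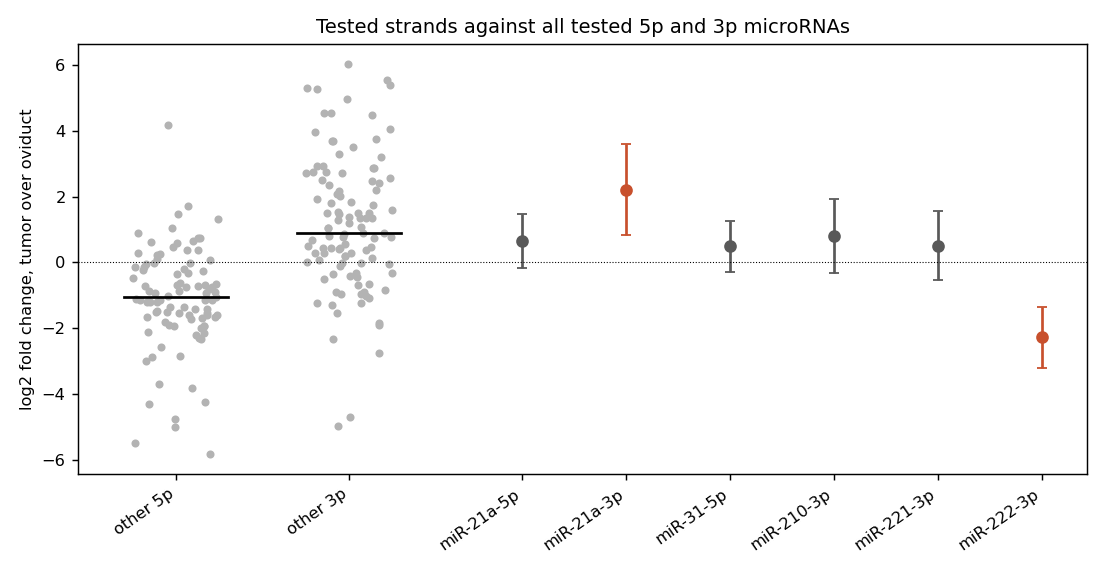
Log2 fold change, tumor over oviduct (y axis), of all other tested 5p and 3p microRNAs (grey points, with a line at the median of the arm) and of the 6 tested strands with their 95% intervals (x axis). Called strands are in red. miR-21a-3p at 2.21 and miR-222-3p at -2.28 stand on opposite sides of 0, and the intervals of the other 4 include 0.

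The microRNAs whose pattern was most like that of each main strand were found from the root mean square difference of centred log2 CPM over the 6 libraries, where 0 is the same pattern. This is a description, since all points share the same libraries and their depth. Nearest to miR-21a-5p were miR-192-5p (0.23), miR-16-5p (0.29) and miR-31-5p (0.29), so that 1 of its 3 nearest was another of the 8 strands. Nearest to miR-31-5p were miR-22-3p (0.13), miR-27a-3p (0.15) and miR-574-5p (0.23).

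For miR-210-3p the nearest were farther away, namely miR-331-3p (0.35), miR-183-5p (0.46) and miR-5099 (0.46). Nearest to miR-221-3p were miR-872-3p (0.19), miR-421-3p (0.38) and miR-93-5p (0.38). Nearest to miR-222-3p were miR-497a-5p (0.18), miR-196b-5p (0.27) and miR-351-5p (0.27), all 3 of them 5p strands that were called lower. The difference between miR-221-3p and miR-222-3p themselves was 1.35, which placed miR-222-3p 163rd of 226 by nearness to miR-221-3p.

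Other microRNAs often raised in cancers were called in both directions. Of 27 listed, 19 were tested, of which 4 were higher, 1 was lower and 14 were not called, with a median log2 fold change of 0.42. Over all tested microRNAs 26.9% were called higher and 25.6% lower, with a median of 0.20. The 4 higher ones were miR-25-3p (1297 ± 250 to 4341 ± 1261 CPM, log2 1.74), miR-214-3p (203 ± 1.44 to 1379 ± 321 CPM, log2 2.76), miR-301a-3p (180 ± 73.3 to 511 ± 211 CPM, log2 1.51) and miR-130b-3p (14.0 ± 7.11 to 342 ± 246 CPM, log2 4.49). All 4 are 3p strands, of which 41.8% were called higher over the whole table, and miR-214-3p is also on the list of fibroblast strands. The lower one was the 5p strand miR-196a-5p, encoded in the Hox clusters (248 ± 24.1 to 30.1 ± 37.9 CPM). The calls of miR-301a-3p and miR-196a-5p were each lost without oviduct 2, and miR-301a-3p was not called without oviduct 3 or tumor 3, with TMM on 3p names or under both other low-count filters. Across the alternatives the list had 3 to 8 higher and 0 to 5 lower members.

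The 2 most abundant members of that list were not called. miR-10b-5p, a strand linked to metastasis, was at 176937 ± 36696 CPM in the oviducts and 96796 ± 33543 CPM in the tumors (log2 -0.87, SE 0.35, edgeR adjusted p = 0.0548). It became a called fall in 6 of the 16 alternatives, by up to -1.71 with TMM on 3p names. miR-92a-3p of the miR-17-92 cluster was at 6182 ± 722 and 7103 ± 1712 CPM (log2 0.20, SE 0.29, adjusted p = 0.572). Its sign turned in 6 of the 16 alternatives, and with TMM on 3p names it was called lower (log2 -0.70, adjusted p = 0.0482). The leukocyte strand miR-155-5p, also listed here, was not called (log2 1.48, SE 0.63, adjusted p = 0.069).

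Of 29 microRNAs often lowered in cancers, 27 were tested, of which 12 were lower, 2 were higher and 13 were not called, with a median log2 fold change of -0.97. Over all tested microRNAs 25.6% were called lower and 26.9% higher. miR-26a-5p fell from 32196 ± 9489 to 10583 ± 1284 CPM (log2 -1.61), which was not called with library totals alone (edgeR adjusted p = 0.0617). Of the 12 lower ones, 10 are 5p strands, the arm of which 48.4% were called lower over the whole table, and the exceptions were miR-29c-3p and miR-375-3p. The 2 higher ones were the endothelial strand miR-126a-3p (log2 1.48) and the epithelial strand miR-203-3p (log2 1.39). Neither was called with TMM on 3p names or when oviduct 1 or oviduct 3 was left out. For miR-203-3p this was also so without oviduct 2 or tumor 3 and under both other low-count filters. A separate list of 6 epithelial strands, which leaves out miR-203-3p, went the other way. Of these 0 were called higher, 1 was called lower (miR-200c-3p) and 5 were not called, with a median log2 fold change of -0.85. miR-143-3p, the most abundant, went from 516741 ± 34506 to 378303 ± 396746 CPM and was called only without tumor 1 (log2 -2.07).

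**Figure D5:**
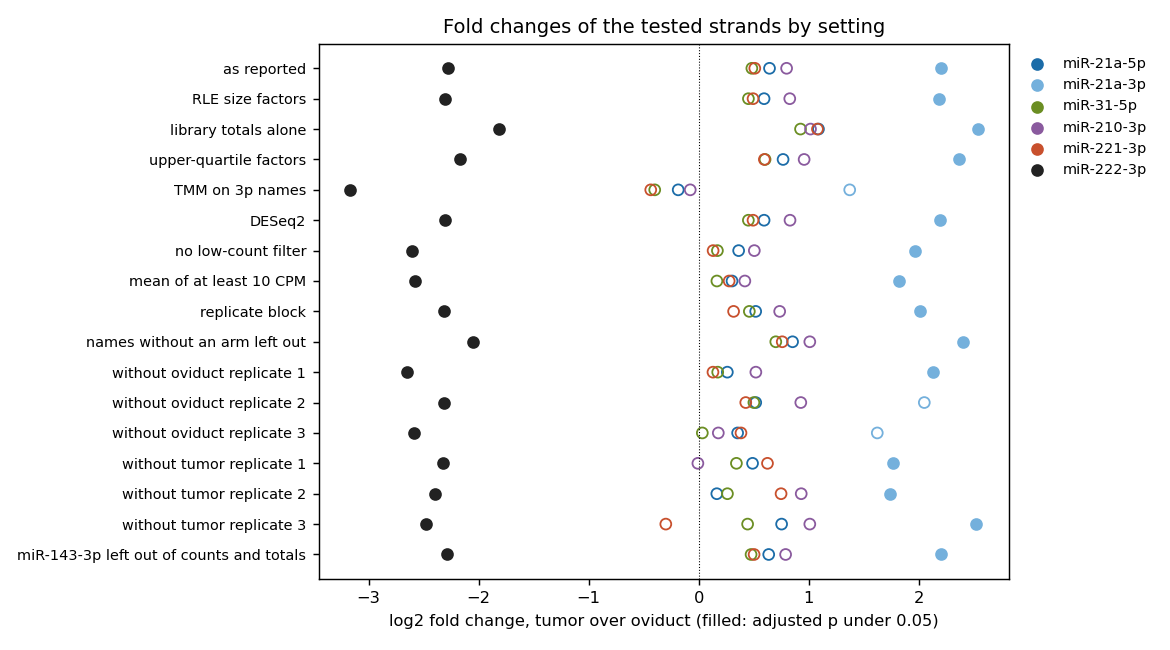
Log2 fold change, tumor over oviduct (x axis), of the 6 tested strands under the reported setting and 16 alternatives (y axis), with filled circles where the adjusted p was under 0.05. miR-222-3p stays left of 0 and filled in every row, from -3.17 to -1.81, miR-21a-3p is filled in all but 3 rows, and the other 4 strands are open throughout.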

How the data were processed

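Small RNA was sequenced from 3 oviducts and 3 tumors (miRNeasy extraction and TruSeq small RNA libraries, per the labels' protocols). Per the submitters' processing notes, cutadapt removed the adapters. The deposited values are raw counts per mature name, taken from BAM files of trimmed reads per the file headers. The aligner is not given in the sources used here, nor is the counter, the microRNA reference or the build. Another 67 names, of other species, held 10 counts and were left out. The series text names 5 oviducts and 4 tumors, and 3 and 3 were analysed here.

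All mouse names were fitted in edgeR 4.0.16 (R 4.3.3) with filterByExpr (minimum count 10), TMM scaling and the quasi-likelihood test in its robust form, which left 227. Adjusted p-values are Benjamini-Hochberg values over all tested names. Standard errors and intervals follow from the F statistic. CPM values are TMM-scaled. Log2 5p:3p ratios (pseudocount 0.5, mean total of at least 20 counts, names that differ by a copy number pooled) were fitted in limma 3.58.1. The exact permutation test was two-sided. Shares carry exact Clopper-Pearson intervals, which cover counting error only. Scripts were tested on simulated data.

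The members and lists were chosen with earlier results of these data known. Named were all members and partner arms, the 3 tested microRNAs nearest to each main strand, and the 2 most abundant members of the cancer lists. Others were named after their values were seen, as those called in the cancer lists. Alternatives were other scalings, filters, pseudocounts and tests, DESeq2 1.42.0, each library left out in turn, and a replicate block. Positions and sequences are from RefSeq (GRCm38.p6) and host genes from GENCODE M21 (GRCm38).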

Additional observations from a re-analysis of the deposited data

How the results depend on the processing

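The count of members called lower was 1 in all 16 alternatives. The count called higher was 1 except with TMM on 3p names (0) and without single libraries, where it ranged from 0 (without oviduct 2 or oviduct 3) to 1. TMM on 3p names treats these as unchanged on average. It moved the median of all tested microRNAs from 0.20 to -0.73 and called 42 higher and 92 lower, against 61 and 58 as reported. It reversed the sign of the log2 fold changes of miR-21a-5p (-0.19), miR-31-5p (-0.40), miR-210-3p (-0.077), miR-221-3p (-0.44) and miR-92a-3p (-0.70). Library totals alone called 71 higher and 27 lower, at a median of 0.65, and no low-count filter called 98 higher and 76 lower, at a median of 0.82. Leaving out single libraries gave -0.0075 (without tumor 1) to 1.01 for miR-210-3p and -0.30 (without tumor 3) to 0.75 for miR-221-3p. miR-92a-3p also turned with no low-count filter (-0.12), with a minimum mean of 10 CPM (-0.094) and without oviduct 1, oviduct 3 or tumor 3 (-0.083, -0.024 and -0.098), its range without single libraries being -0.098 to 0.40.

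The log2 5p:3p change of miR-21a was called at a pseudocount of 5 (-1.30) and by the edgeR interaction (-1.45), and leaving out single libraries gave -1.87 to -1.05. That of miR-31 turned with the interaction (0.21) and ranged from -0.55 to 0.85 without single libraries, with 0.85, 0.19 and 0.02 without oviduct 2, tumor 1 and tumor 3. That of miR-222 turned at a pseudocount of 0.1 (-1.68) and with the interaction (-2.20), and that of miR-210, at -1.21 to 0.56 without single libraries, without tumor 2 (0.56). The cause was not tested, beyond the few counts of the lesser arms.

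No pairing of the samples by replicate number was seen, although 3 samples per group cannot exclude it. The correlations of deviations from the group means between same-numbered samples were -0.05, 0.09 and -0.14, and not every sample correlated best with its own number. With a replicate block 108 microRNAs were called, against 119, the log2 fold changes were 2.01 for miR-21a-3p and -2.32 for miR-222-3p, and the ratio of miR-221-3p to miR-222-3p was the same, 2.61. It changed no call among the members. miR-143-3p left out of counts and totals, and the limma fit over pairs, were chosen after the data were seen. Strands with under 20 counts in most libraries were limited by depth.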
